A study of Mus musculus with 6 samples.

Results

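The Mef2 genes encode the 4 myocyte enhancer factor 2 proteins of the mouse, Mef2a, Mef2b, Mef2c and Mef2d. They were taken from the deposited expression table by symbol, through the NCBI gene number of each row (17258, 17259, 17260 and 17261), and make up 4 of 17558 genes and 32 of 57920 transcripts. RNA was sequenced from C2C12, an immortalized mouse myoblast line that stops dividing and fuses into multinucleated myotubes when serum is lowered. All 6 libraries came from cells that stably carried a short hairpin construct and had spent 48 h in differentiation medium with low horse serum, insulin, transferrin and selenium. The shScr libraries (genotype WT) carried a scrambled hairpin with no target, the shPkm1 libraries (Pkm1 Knockdown) a hairpin against the Pkm1 splice form of pyruvate kinase, and the shPkm2 libraries (Pkm2 Knockdown) a hairpin against the Pkm2 form, with 2 libraries in each group. The design text names the role of both isoforms in myoblast differentiation as its question. The labels do not say whether the 2 libraries of a group came from separate cultures, or how many clones or hairpin sequences stood behind a group, so the p-values measure only the spread between these libraries.

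MEF2 proteins are transcription factors with a MADS box and an adjoining MEF2 domain, through which they pair and bind A/T-rich sites in the promoters of muscle genes. In differentiating myoblasts they act with the myogenic factors Myod1 and Myog to switch on genes of contraction and energy supply. Class II histone deacetylases hold them inactive, and p38 kinases and calcineurin activate them. Their transcripts are also spliced by tissue: one of 2 mutually exclusive exons, α1 or α2, follows the DNA-binding part, and a short β exon further on is either included or skipped. The α2 exon is known as the muscle form, the α1 exon of Mef2d as the widely expressed form that protein kinase A can modify, and the β exon as an exon of muscle and brain that strengthens activation.

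Exons by which the transcripts described here differ are shown next. The sequences run 5′ to 3′ along the transcript, capitals mark the alternative exon, and the lower-case letters are the last 10 bases of the exon before it and the first 10 of the exon after it. They come from the GENCODE transcripts of GRCm38 (the same assembly as mm10) that are linked to the RefSeq transcripts of the table. In Mef2d, on the plus strand, the α1 exon lies at chr3:88158034-88158171 (exon 4 of 12, 138 bases), the α2 exon at chr3:88158221-88158355 (135 bases) and the β exon at chr3:88161781-88161801 (exon 8 of 12, 21 bases). In Mef2a, on the minus strand, the α1 exon lies at chr7:67268269-67268400 (exon 5 of 12, 132 bases) and the β exon at chr7:67244521-67244544 (exon 9 of 12, 24 bases).
Mef2d α1 exon: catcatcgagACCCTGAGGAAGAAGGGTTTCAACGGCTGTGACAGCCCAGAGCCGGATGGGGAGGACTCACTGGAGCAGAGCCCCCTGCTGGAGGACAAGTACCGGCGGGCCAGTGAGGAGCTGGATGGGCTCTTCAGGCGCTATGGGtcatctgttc
Mef2a α1 exon: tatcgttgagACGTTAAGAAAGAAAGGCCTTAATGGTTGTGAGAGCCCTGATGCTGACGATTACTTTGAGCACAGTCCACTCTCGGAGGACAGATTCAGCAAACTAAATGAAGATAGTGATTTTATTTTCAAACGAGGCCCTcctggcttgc
Mef2d α2 exon: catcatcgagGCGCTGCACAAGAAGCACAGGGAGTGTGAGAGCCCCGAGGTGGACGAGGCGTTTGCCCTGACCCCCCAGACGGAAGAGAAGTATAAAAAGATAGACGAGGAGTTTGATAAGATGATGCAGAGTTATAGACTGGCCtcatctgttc
Mef2d β exon: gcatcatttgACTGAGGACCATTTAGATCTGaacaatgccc
Mef2a β exon: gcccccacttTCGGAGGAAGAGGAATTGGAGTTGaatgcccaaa

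The α exons of Mef2d and the α1 exon of Mef2a were named by the Mef2c exon they share more bases with, where the longer exon of the Mef2c pair is α1. The α1 exon of Mef2a was 65.3% identical to the α1 and 59.4% to the α2 exon of Mef2c, and the α exon of the known Mef2a transcripts that lack it is called α2. The α1 exons of Mef2a and Mef2d were 54.3% identical over their alignment, and the α2 and α1 exons within Mef2d 51.4%. The length of every exon shown is a multiple of 3, so exchanging or skipping one keeps the reading frame. Exon content was known for 5 of 9 Mef2a transcripts, 3 of 7 Mef2d transcripts, 2 of 15 Mef2c transcripts and the single Mef2b transcript. The others are predicted RefSeq models (names in XM) that could not be matched to an annotated structure. Shares of an exon are therefore given as bounds: at least the share of the transcripts known to hold it, and at most that share plus all transcripts of unknown content.

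Libraries held between 18216896 and 19796036 estimated counts. The deposited values show the Pkm1 isoform at 546 and 589 TPM (a level per transcript length, scaled to the library) in shScr, 243 and 218 in shPkm1, and 254 and 254 in shPkm2. The Pkm2 isoform stood at 1073 and 1517 TPM in shScr, 1278 and 1379 in shPkm1, and 2700 and 2630 in shPkm2. The libraries labelled shPkm2 thus had more of the isoform their hairpin is named for than the control, and directions are given for the labels. All 8 myoblast and myotube markers were detected, and their summed level was 24434 to 31908 CPM (counts scaled to library size) in shScr, 11216 to 12462 in shPkm1 and 1591 to 1658 in shPkm2. Myf5, the early factor among them, went the other way, at 287 and 331 counts in shScr, 431 and 416 in shPkm1, and 1326 and 1269 in shPkm2, while the other 7 were lower in both hairpin groups. None of 4 adipocyte markers passed 3 counts in any library. The summed marker level thus differed between the groups of every comparison below, and its part in these results was not tested.

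Mef2d was the most abundant member in the control. It stood at 84.6 and 94.2 TPM in shScr, 65.6 and 62.0 in shPkm1, and 44.6 and 40.5 in the libraries labelled shPkm2. The 3 groups did not overlap, with the highest level in the control and the lowest in shPkm2. Mef2d (chromosome 3, 88142372 to 88172086, plus strand) overlaps an antisense gene, and whether counting used strand is not given in the sources used here. Mef2d fell in both groups: the log2 fold change against shScr was -0.89 in shPkm1 (SE 0.0945, adjusted p = 3.74e-06) and -1.53 in shPkm2 (SE 0.0962, adjusted p = 1.30e-08), by edgeR's quasi-likelihood test with Benjamini-Hochberg adjustment. In bulk libraries, fewer cells of a type and less RNA per cell cannot be told apart. Mef2d also fell by 0.65 on the log2 scale between shPkm1 and shPkm2 (SE 0.0950, adjusted p = 7.41e-05, same test).

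Mef2a, the other abundant member, was lower in the libraries labelled shPkm2 and not called in those labelled shPkm1. It stood at 63.5 and 67.3 TPM in shScr, 83.6 and 71.2 in shPkm1, and 39.6 and 39.2 in shPkm2. The shPkm2 libraries were the lowest and lay close together. In edgeR the log2 fold change of Mef2a against shScr was -0.15 in shPkm1, with a 95% interval from -0.37 to 0.06 (adjusted p = 0.192). That value had no stable sign: with library totals alone as scaling it was 0.04, and the TPM values were higher in both shPkm1 libraries than in the control. In shPkm2 Mef2a fell, with log2 fold changes of -1.19 against shScr (SE 0.101, adjusted p = 2.61e-07) and -1.04 against shPkm1 (SE 0.101, adjusted p = 1.72e-06), both by edgeR. Mef2a (chromosome 7, 67231163 to 67372858, minus strand) overlaps Lysmd4 on the other strand and the gene models Gm44667 and Gm44668 on its own.

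The order of these members changed with the group. Mef2a stood at 0.750 and 0.714 times the TPM of Mef2d in shScr, at 1.27 and 1.15 times in shPkm1, and at 0.889 and 0.968 times in shPkm2. Mef2d was thus above Mef2a in both control libraries and in both shPkm2 libraries, and below it in both shPkm1 libraries. The ratio itself was not tested. The TPM of the whole family summed to 153 and 163 in shScr, 150 and 135 in shPkm1, and 84.4 and 79.7 in shPkm2. Mef2a and Mef2d made up nearly all of it, since Mef2c held at most 3.31% of the sum in any library.

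**Figure D1:**
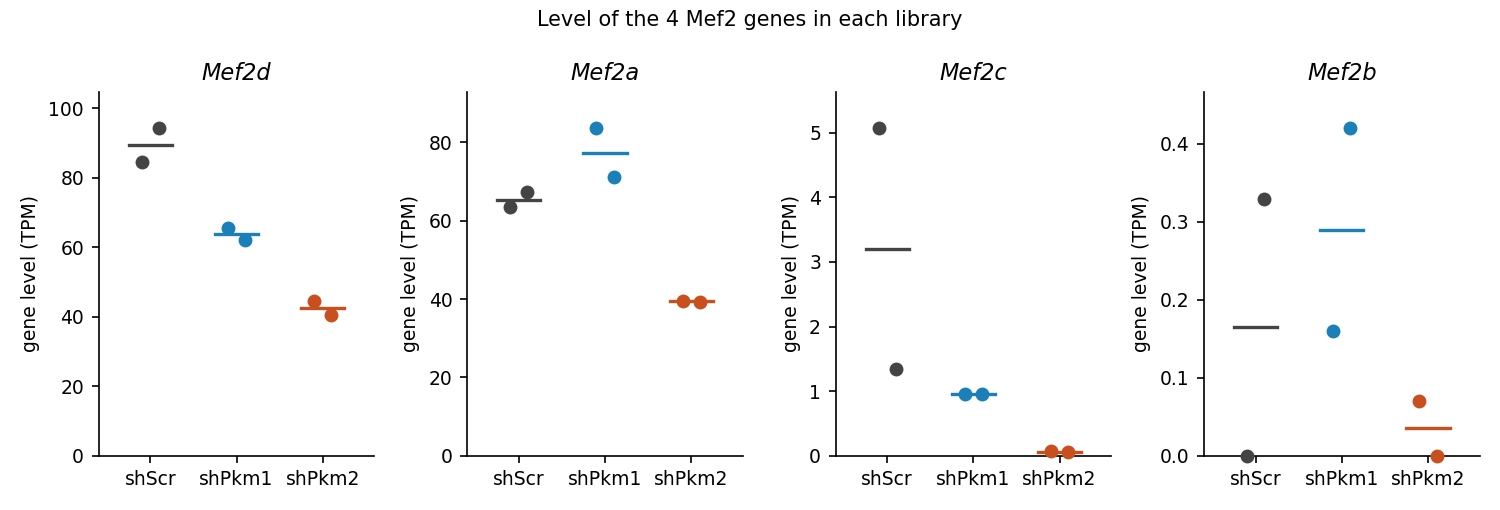
Level of each Mef2 gene (TPM, y axis from 0, a separate scale for each gene) by group; points are single libraries and bars the mean of 2. Mef2d descends from shScr to shPkm2, Mef2a is low only in the libraries labelled shPkm2, and the control libraries of Mef2c lie far apart, at 5.07 and 1.34 TPM.

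Mef2c, the member needed for heart development and for the sarcomeres of skeletal muscle, was low and fell in both groups. It held 367 and 97 estimated counts in shScr, 57 and 58 in shPkm1, and 5 and 4 in shPkm2, or 5.07 and 1.34 TPM, 0.96 and 0.95 TPM, and 0.07 and 0.05 TPM. The groups did not overlap, but the first control library held far more than the second. Mef2c fell, with log2 fold changes against shScr of -2.25 in shPkm1 (SE 0.477, adjusted p = 0.00112) and -6.02 in shPkm2 (SE 0.717, adjusted p = 6.67e-06) in edgeR. Against shPkm1, the shPkm2 libraries fell by 3.77 (SE 0.866, adjusted p = 0.00249, edgeR). The size against the control rests on control replicate 1: without it the log2 fold change was -0.88 in shPkm1 (adjusted p = 0.0033, edgeR) and -4.64 in shPkm2, and without control replicate 2 it was -2.96 and -6.72. On the log2(FPKM + 1) scale of limma, which compresses low genes, the difference between shPkm2 and shPkm1 was -0.56 (adjusted p = 0.139). Mef2c lies on chromosome 13 (83504034 to 83667080, plus strand).

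Mef2b, best known from B cells, was at the limit of detection. It held 0 and 5 counts in shScr, 2 and 6 in shPkm1, and 1 and 0 in shPkm2, and at this depth 3 counts correspond to 0.152 to 0.165 CPM. No difference was detectable and the gene did not pass the filter for testing. It lies on chromosome 8 (70139711 to 70167488, plus strand) and overlaps Borcs8 on the same strand. In shPkm2 its 0.07 and 0 TPM overlapped the 0.07 and 0.05 TPM of Mef2c, so the order of these members at the bottom was not resolved there.

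These counts stand against a wide change of the transcriptome. Of the 3 members tested, 2 were called lower in shPkm1 against shScr, where 31.4% of all tested genes were called lower. All 3 tested members were called lower in shPkm2 against shScr and in shPkm2 against shPkm1, where 34.2% and 27.3% of genes were. By size, 11.5% of tested genes had a lower log2 fold change than Mef2d in shPkm1 and 8.64% in shPkm2, against shScr. For Mef2a this was 41.3% and 11.4%, and for Mef2c 2.71% and 1.20%. Library totals alone would raise the median of all genes by 0.19 on the log2 scale in shPkm1, by 0.32 in shPkm2 and by 0.13 between them, and Mef2c and Mef2d kept their direction and their call under that scaling in all comparisons.

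**Figure D2:**
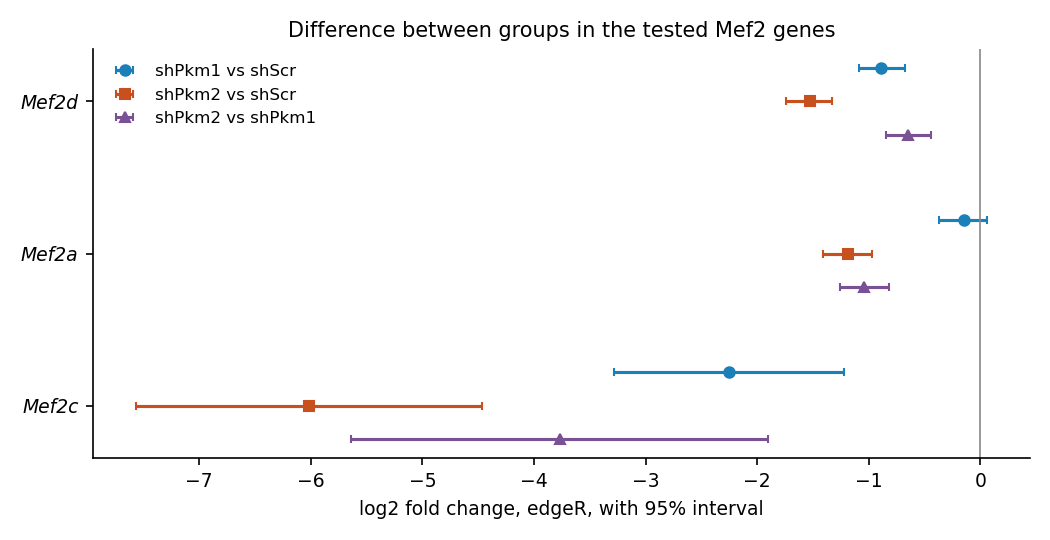
Log2 fold change (x axis) of the 3 tested Mef2 genes in each comparison, fitted by edgeR to all genes; points are estimates and lines 95% intervals. The interval of Mef2a in shPkm1 against shScr, from -0.37 to 0.06, is the only one that reaches 0, and those of Mef2c are the widest.

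The transcripts of Mef2d changed in make-up as well as in sum. The α1 transcript with the β exon (NM_001310587.1) stood at 25.1 and 38.9 TPM in shScr and 15.6 and 22.8 in shPkm1, and was listed at 0 in both shPkm2 libraries. The α1 transcript without the β exon (NM_133665.4) was listed at 0 in both shScr libraries, and stood at 3.20 and 3.69 TPM in shPkm1 and 29.9 and 23.4 in shPkm2. The pair shares the α1 exon printed above and differs in the 21 bases of the β exon, and one was high in the libraries where the other was at 0. Their summed level overlapped between the groups, at 25.1 and 38.9 TPM in shScr, 18.8 and 26.5 in shPkm1, and 29.9 and 23.4 in shPkm2.

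The share of NM_133665.4 within Mef2d rose in all comparisons by edgeR's diffSpliceDGE, which sets a transcript against the other tested transcripts of its gene. The adjusted p was 2.20e-06 for shPkm1 and 4.29e-09 for shPkm2 against shScr, and 1.85e-04 for shPkm2 against shPkm1. The share of NM_001310587.1 fell in shPkm2 against shScr (adjusted p = 1.70e-09, diffSpliceDGE) and against shPkm1 (adjusted p = 4.88e-09). Where a group is at 0, levels were compared with a floor of 3 counts per library, which covers counting error and not the division of reads among transcripts. By the mean CPM of the group that held it, NM_133665.4 was at least 65.6-fold higher in shPkm1 and at least 531-fold higher in shPkm2 than in shScr. By the lower library of each group these bounds were 60.0 and 477. NM_001310587.1 was at least 702-fold lower in shPkm2 than in shScr by the control mean, and 567-fold by the lower control library.

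The calls of transcript use differed between methods. With limma's voom and diffSplice, none of these changes in use against shScr passed the threshold (adjusted p = 0.452 for NM_133665.4 in shPkm1 and 0.186 in shPkm2, and 0.314 for NM_001310587.1 in shPkm2). The fall of NM_001310587.1 between shPkm1 and shPkm2 was not called there either (adjusted p = 0.387), whereas the rise of NM_133665.4 in that comparison was. In diffSpliceDGE that rise lost its call without replicate 1 of shPkm2 (adjusted p = 0.0896).

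Of the other Mef2d transcripts, 2 fell in level in shPkm2 and 1 was seen in the control alone. The α2 transcript (NM_001310593.1), the muscle form, stood at 16.9 and 21.9 TPM in shScr, 23.7 and 19.5 in shPkm1, and 6.89 and 7.17 in shPkm2. It fell by 1.88 in shPkm2 against shScr on the log2 scale (SE 0.131, adjusted p = 0.00234, edgeR on transcripts), while its share of the gene was not called. The control and shPkm1 libraries overlapped. The predicted transcript XM_006501089.2 stood at 14.3 and 15.4 TPM in shScr, 16.7 and 12.9 in shPkm1, and 5.10 and 7.02 in shPkm2, and fell by 1.71 in shPkm2 against shScr (SE 0.218, adjusted p = 0.0100, edgeR). The predicted transcript XM_006501090.3 was seen only in the control, at 24.7 and 10.3 TPM, and was listed at 0 in the other 4 libraries, the reverse of NM_133665.4. It passed the filter through the control alone and so had to fall, and its test is not used. The remaining predicted transcripts, XM_011240033.2 and XM_011240034.2, lay between 1.10 and 4.87 TPM. For XM_011240033.2 in shPkm2 against shScr the adjusted p was 0.0598 by edgeR, 0.0354 by edgeR on transcripts that averaged 50 counts or more, and 4.22e-04 by DESeq2.

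**Figure D3:**
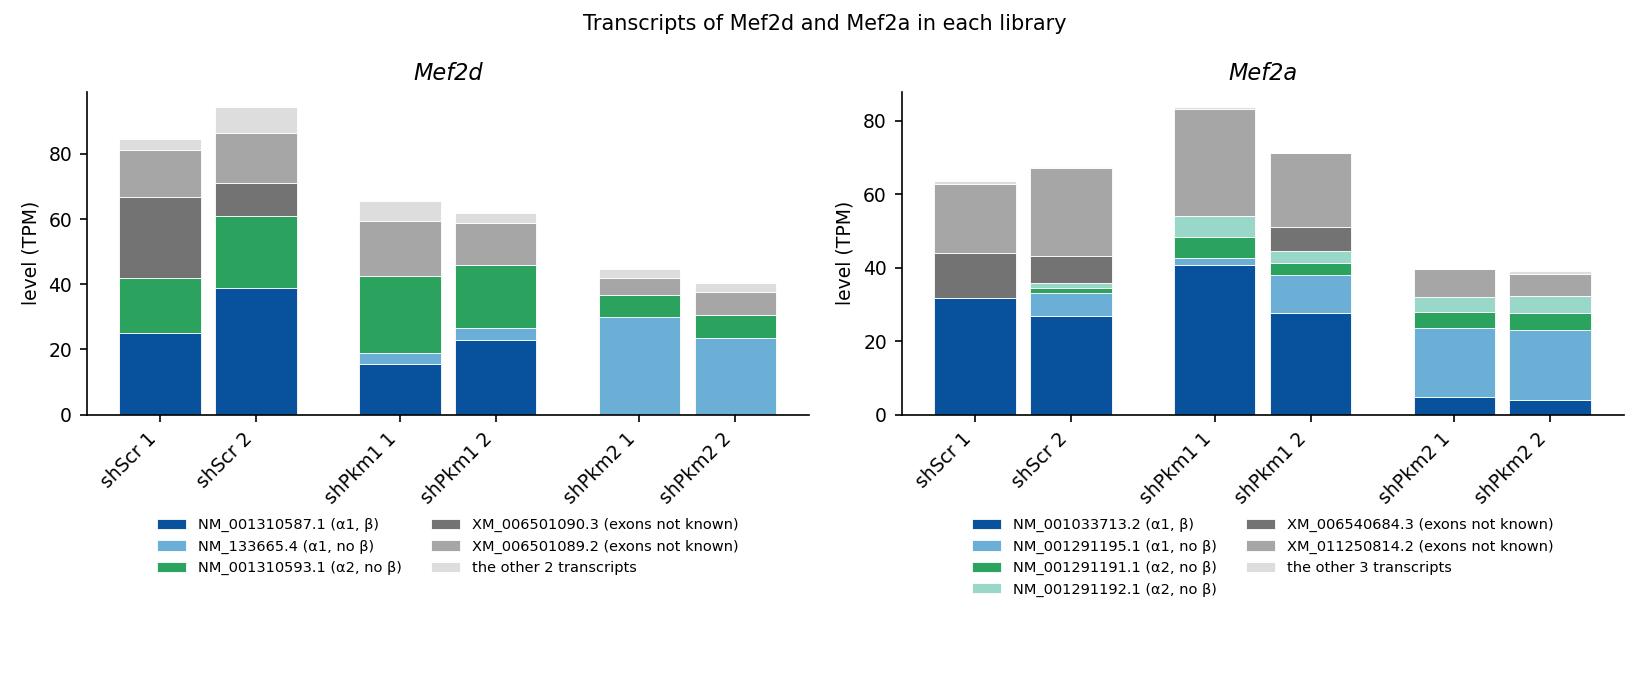
Level (TPM, y axis) of the transcripts of Mef2d (left) and Mef2a (right), stacked for each library; dark blue is the α1 form with the β exon, light blue an α1 form without it, greens the α2 forms, and greys transcripts of unknown exon content and the rest. In both genes light blue is larger than dark blue only in the libraries labelled shPkm2, where the dark blue of Mef2d is listed at 0.

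Mef2a showed values of the same kind, without a call for transcript use by diffSpliceDGE. Its α1 transcript with the β exon (NM_001033713.2) stood at 31.8 and 26.9 TPM in shScr, 40.6 and 27.7 in shPkm1, and 4.93 and 4.07 in shPkm2. Its main α1 transcript without the β exon (NM_001291195.1) stood at 0 and 6.30 TPM in shScr, 2.00 and 10.3 in shPkm1, and 18.7 and 18.9 in shPkm2. The shPkm2 libraries lay apart from the other 4 in both transcripts, while shScr and shPkm1 overlapped. The level of NM_001033713.2 fell in shPkm2, with log2 fold changes of -3.14 against shScr (SE 0.234, adjusted p = 0.00278) and -2.99 against shPkm1 (SE 0.233, adjusted p = 0.00613) in edgeR on transcripts. The second of these calls was lost without replicate 1 or 2 of shPkm2 (adjusted p = 0.0537 and 0.057).

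In use, NM_001033713.2 in shPkm2 against shScr had a log2 difference of -1.98 from the other transcripts (adjusted p = 0.406, diffSpliceDGE), and NM_001291195.1 one of 3.38 (adjusted p = 0.302). Without control replicate 2, which leaves NM_001291195.1 at 0 in the control, its adjusted p was 0.0345. None of the 8 tested Mef2a transcripts was called for use by diffSpliceDGE in any comparison, and at an unadjusted p under 0.05 there were 0 in shPkm1 against shScr and 3 in each of the others. In both, 1 of the 3 is XM_006540684.3, which was at 0 in shPkm2 and passed the filter only with the control libraries, so its low p there is not used. Voom with diffSplice called NM_001033713.2 and NM_001291195.1 in shPkm2 against shPkm1 (adjusted p = 0.00788 and 0.00138). That Mef2d and Mef2a differ in transcript use was not tested.

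The division of reads among Mef2a transcripts varied within groups. The predicted transcript XM_006540684.3 stood at 12.3 and 7.31 TPM in shScr, at 0 and 6.53 in shPkm1, and at 0 in both shPkm2 libraries. Replicates of shPkm1 thus disagreed on whether this transcript was present. The α2 transcripts NM_001291191.1 and NM_001291192.1 carry identical values in every library and cannot be told apart. The other Mef2a transcripts (NM_001291196.1, XM_017322011.1 and XM_006540685.3) stayed at 0.80 TPM or less. Together the α2 pair stood at 0 and 2.64 TPM in shScr, 11.5 and 6.56 in shPkm1, and 8.44 and 9.32 in shPkm2. The predicted transcript XM_011250814.2, at 18.7 and 23.9 TPM in shScr, 28.9 and 20.2 in shPkm1, and 7.53 and 5.90 in shPkm2, fell by 2.09 in shPkm2 against shScr (SE 0.198, adjusted p = 0.00467, edgeR on transcripts).

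Summed over transcripts, the β exon was in less of the RNA in the libraries labelled shPkm2. For Mef2d its share of the gene's TPM was at least 29.7% and 41.3% in shScr, at least 23.8% and 36.7% in shPkm1, and at most 17.4% and 24.4% in shPkm2. The lower bounds of both control libraries lie above both upper bounds of shPkm2, whatever the predicted transcripts hold. For shPkm1 the lower of these bounds, 23.8%, lies within the shPkm2 range. For Mef2a the share was at least 50.1% and 40.0% in shScr, at least 48.6% and 38.9% in shPkm1, and between 10.4% and 31.4% in shPkm2. Here the bounds of shPkm2 lie below those of all 4 other libraries. The shares are given as bounds for each library and were not tested. These bounds cover unknown exon content alone and take the deposited division of reads among transcripts as given.

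The α exons gave no such separation. The α2 share of Mef2d was at least 20.0% and 23.3% in shScr, 36.2% and 31.5% in shPkm1, and 15.4% and 17.7% in shPkm2, but the upper bounds were 70.3% and 58.7%, 71.3% and 57.3%, and 32.9% and 42.1%. For Mef2a the α2 share was at least 0% and 3.92% in shScr, 13.7% and 9.21% in shPkm1, and 21.3% and 23.8% in shPkm2, and at most 39.3% to 50.3% in the 6 libraries. The ranges overlap between groups in both genes, so no order of α2 use follows from the known transcripts.

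**Figure D4:**
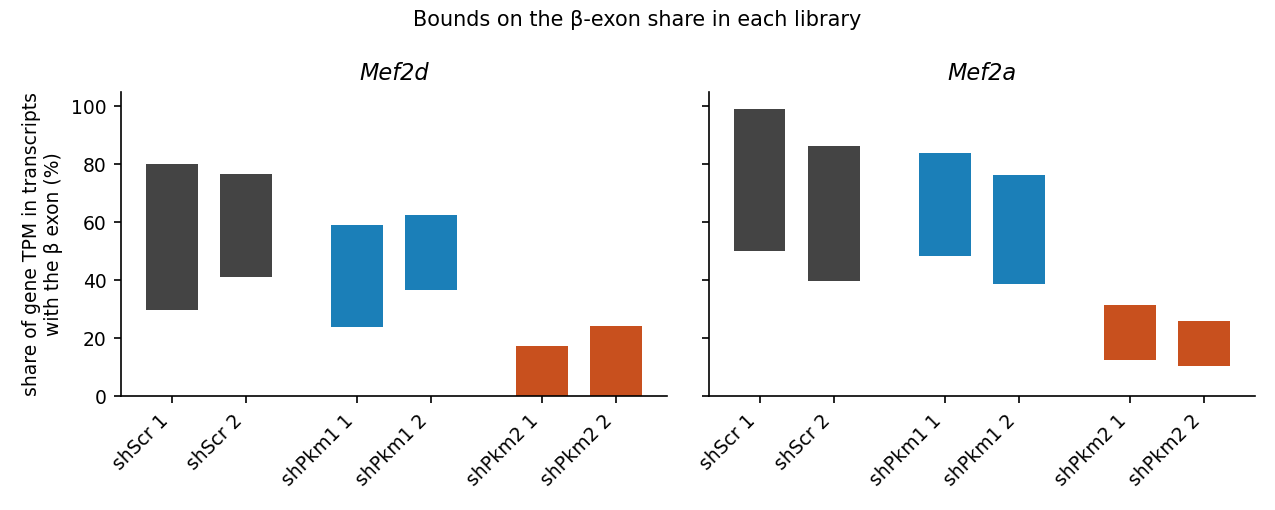
Share (%, y axis) of the TPM of Mef2d and Mef2a in transcripts with the β exon, for each library; each bar runs from the lower to the upper bound, and its height is the share of transcripts whose exons are not known. The shPkm2 bars end at 17.4% and 24.4% for Mef2d and at 31.4% and 25.9% for Mef2a, below the lower ends of the control bars.

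Mef2c transcripts were too rare to follow. Of 15 listed, 3 had no count in any library, 3 passed the filter, and the 13 predicted ones stood at 0.82 TPM or less. The α2 transcript (NM_025282.3) held 152 and 57 counts in shScr, 28 and 0 in shPkm1, and 0 and 0 in shPkm2. The α1 transcript (NM_001170537.1) held 80 and 8 counts in shScr, 0 and 24 in shPkm1, and 5 and 4 in shPkm2, which were all the Mef2c counts of the libraries labelled shPkm2. Replicates disagreed within shScr and shPkm1, and no Mef2c transcript was called for level or use in the edgeR fit of all 6 libraries. NM_025282.3 was at 0 in both shPkm2 libraries and passed the filter only with the control libraries. It could therefore only fall in shPkm2, and its tests there are not used.

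Over the family, 18 of 32 transcripts were tested, and the counts here are of the 17 other than XM_006501090.3. In level, 1 was called in shPkm1 against shScr, 6 in shPkm2 against shScr and 6 in shPkm2 against shPkm1, where 10.8%, 17.2% and 7.91% of all tested transcripts were called by edgeR. In use, diffSpliceDGE called 1, 2 and 2, all of Mef2d, where 0.408%, 1.10% and 0.526% of transcripts were. All 6 calls of level in shPkm2 against shScr stayed under the threshold without each library in turn. NM_133665.4 lost its call in shPkm1 against shScr without replicate 1 of shPkm1 (adjusted p = 0.052, edgeR). Between shPkm2 and shPkm1, NM_001310587.1 was the only one of the 6 that kept its call without each library in turn. NM_133665.4 was the one transcript called higher for level by edgeR, in each comparison, and the one called higher for use by diffSpliceDGE.

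The genes whose profile over the 6 libraries lay nearest to each member were found among the 10707 genes that averaged 50 counts or more, by the root mean square difference of centred log2 CPM. For Mef2d they were Plaat3 (0.0462), Sync (0.0665), a partner of desmin filaments, and Aldh3b1 (0.0684). For Mef2a they were Rb1 (0.0576), the retinoblastoma gene that holds back the cell cycle, Pex11g (0.0581), a peroxisome gene, and Itm2b (0.0654). Mef2c had no such close neighbour: its nearest were the growth factor gene Igf2 (0.343), Tmod1 (0.397), which caps actin filaments, and Pstpip1 (0.404). Igf2 held 22570 and 11688 counts in shScr, 3846 and 3533 in shPkm1, and 498 and 509 in shPkm2.

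Known muscle targets of MEF2 were lower with few exceptions. Of 16 tested, 15 were called lower in shPkm1 against shScr and 14 in shPkm2, where 31.4% and 34.2% of all tested genes were, and none higher in either. Between shPkm2 and shPkm1, where 27.3% of all genes were called lower and 25.7% higher, 13 were called lower and 1, Jun, higher by 0.59 on the log2 scale (adjusted p = 7.71e-04, edgeR). The median log2 fold change was -1.91 in shPkm1 and -5.78 in shPkm2, beside medians of 0 and 0.01 over all genes. Smpx, a small protein of the muscle cytoskeleton, fell by 3.34 in shPkm1 (SE 0.250) and held 1273 and 749 counts in shScr against 2 and 2 in shPkm2, a ratio of 509 with an exact 95% counting interval from 199 to 1870. Ckm, the muscle creatine kinase, fell, with log2 fold changes of -2.81 in shPkm1 (SE 0.226) and -8.16 in shPkm2 (SE 0.301). Mb, the oxygen store myoglobin, fell by 5.97 between shPkm1 and shPkm2 (SE 0.162), and the muscle kinase gene Srpk3 fell by 6.02 (SE 0.349), with values of -5.31 and -7.5 without replicate 1 and replicate 2 of shPkm2, which held 1 and 5 counts. Ckm, Des and Myog are also among the muscle markers above. The lower calls of Des and Jun in shPkm1, at -0.51 and -0.34, rested on replicate 1 of that group. Without it their values were -0.41 and -0.2. Without control replicate 2, or with library totals as scaling, 1 target, Jun, was called higher in shPkm2.

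Co-factors of MEF2 moved both ways. Of 9 tested genes on a list of MEF2 co-repressors, 3 were called higher and 5 lower in shPkm1, and 3 higher and 3 lower in shPkm2. The shares over all genes were 31.8% and 31.4%, and 33.9% and 34.2%. The class II deacetylase Hdac7 rose by 1.70 in shPkm1 (SE 0.111) and by 1.10 in shPkm2 (SE 0.111), Hdac4 rose by 0.70 in shPkm1 (SE 0.138), and the co-repressor Ncor1 rose by 0.41 in shPkm2 (SE 0.103), a call lost without replicate 1 of shPkm2 (adjusted p = 0.0672, edgeR). Hdac9 fell by 1.67 in shPkm1 (SE 0.264) and Hdac5 fell by 0.83 in shPkm2 (SE 0.0997). Sik1, a kinase on the list that phosphorylates class II deacetylases, fell, with values of -1.06 and -2.03 (SE 0.104 and 0.109). It is not itself a co-repressor, and it is among the lower calls in every comparison. Without replicate 1 of shPkm1 the count lower in shPkm1 was 2, and without replicate 1 of shPkm2 the count higher in shPkm2 was 1. Between shPkm2 and shPkm1, where 25.7% of all genes were called higher and 27.3% lower, 3 were called higher, led by Hdac9 (1.5, SE 0.262) and Cabin1 (0.49, SE 0.114), and 4 lower, led by Sik1 (-0.97, SE 0.108) and Hdac7 (-0.60, SE 0.106). Without replicate 1 of shPkm1, or of shPkm2, that count higher was 1, and Cabin1 lost its call (adjusted p = 0.0602 and 0.0685, edgeR).

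Among 19 tested co-activators and partners, 5 were called higher and 7 lower in shPkm1, and 6 and 6 in shPkm2, against shScr. These counts lie near the shares of all genes called, 31.8% higher and 31.4% lower in shPkm1 and 33.9% and 34.2% in shPkm2. The myogenic factor Myog fell by 5.35 in shPkm2 (SE 0.154), and Mamstr, a co-activator of MEF2, fell in both, with log2 fold changes of -1.24 in shPkm1 (SE 0.227) and -3.83 in shPkm2 (SE 0.287). Vgll2, a TEAD co-factor of muscle, fell by 1.25 in shPkm1 (SE 0.314), and by 0.44 without control replicate 1. That call was lost without replicate 1 of shPkm1 (adjusted p = 0.0529, edgeR). The early myogenic factor Myf5 rose by 1.74 and the acetyltransferase Ep300 by 0.80 in shPkm2 (SE 0.105 and 0.106). Nfatc1 rose by 0.82 and Tcf12 by 0.57 in shPkm1 (SE 0.112 and 0.0953). Between shPkm2 and shPkm1, where 25.7% of all genes were called higher and 27.3% lower, 4 were higher, led by Myf5 (1.48, SE 0.103) and Tcf3 (0.61, SE 0.0967), and 8 lower, led by Myog (-4.41, SE 0.147) and Mamstr (-2.59, SE 0.305). Without replicate 2 of shPkm1, or of shPkm2, 5 were lower. With library totals as scaling the counts higher against shScr were 9 and 11.

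Of 17 tested genes on a list of kinases and phosphatases drawn up around MEF2, 6 were called higher and 4 lower in shPkm1, and 5 and 5 in shPkm2, again near the 31.8% and 31.4%, and 33.9% and 34.2%, of all genes. Mapk11, a p38 kinase, rose by 1.42 in shPkm1 and 1.61 in shPkm2 (SE 0.134 and 0.133). Map2k6, which activates p38, rose by 0.81 in shPkm1 and 2.42 in shPkm2 (SE 0.226 and 0.202), the first not called without replicate 2 of shPkm1 (adjusted p = 0.0593, edgeR). Mapk14, another p38 kinase, fell by 0.36 in shPkm1 (SE 0.105) and stood at -0.23 in shPkm2, not called (adjusted p = 0.0684, edgeR). Its call in shPkm1 was lost without control replicate 1 or replicate 2 of shPkm1 (adjusted p = 0.0508 and 0.0839). The calcineurin gene Ppp3ca rose by 1.13 in shPkm1 (SE 0.107). Prkaca, a catalytic subunit of protein kinase A, fell by 1.39 in shPkm2 (SE 0.111). Srpk3, which is known as a target of MEF2 and is also in the target list, is 1 of the lower calls in every comparison. It fell by 2.13 in shPkm1 (SE 0.158) and held 753 and 653 counts in shScr against 1 and 5 in shPkm2. These counts were sensitive to single libraries. Lower calls in shPkm1 were 1 without control replicate 1, 2 without replicate 1 and 1 without replicate 2 of shPkm1. Higher calls in shPkm2 were 3 without control replicate 2 or without either shPkm2 library, and lower calls 3 without control replicate 1 or replicate 2 of shPkm2. Between shPkm2 and shPkm1, where 25.7% of all genes were called higher and 27.3% lower, Map2k6 was the one gene of the list called higher (1.61, SE 0.182) and 5 were lower, led by Srpk3 and by Prkaca (-1.17, SE 0.111), or 3 without replicate 2 of shPkm1 or either library of shPkm2.

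Splicing regulators of muscle include proteins known to act on MEF2 exons, and all 7 listed were tested. In shPkm1 against shScr 3 were called higher and 4 lower, and in shPkm2 3 and 3, where 31.8% and 31.4%, and 33.9% and 34.2%, of all genes were. Rbfox1, a regulator that promotes inclusion of muscle exons, held 488 and 294 counts in shScr, 61 and 61 in shPkm1, and 4 and 9 in shPkm2. It fell, with log2 fold changes of -2.90 in shPkm1 (SE 0.272, adjusted p = 1.19e-06, edgeR) and -6.23 in shPkm2 (SE 0.389, adjusted p = 1.23e-08). Ptbp1, a repressor of tissue-specific exons, rose by 1.57 in shPkm2 against shScr (SE 0.108) and by 1.08 against shPkm1 (SE 0.106). Mbnl1 rose by 1.32 in shPkm1 and 1.49 in shPkm2 (SE 0.112 and 0.112), and Mbnl2 by 1.30 in shPkm1 (SE 0.106). Rbfox2 fell by 0.38 in shPkm1 (SE 0.107), a call lost without either shPkm1 library (adjusted p = 0.0535 and 0.0650, edgeR), and Celf2 fell by 0.68 in shPkm2 (SE 0.103). Between shPkm2 and shPkm1, against the same 25.7% and 27.3% of all genes, Ptbp1 was the only one called higher and 4 were lower, led by Rbfox1 (-3.33, SE 0.496) and Mbnl2 (-0.38, SE 0.102). Without replicate 2 of shPkm2 the values of Rbfox1 were -6.92 against shScr and -4.03 against shPkm1, and Mbnl2 lost its call without that library or replicate 1 of shPkm1 (adjusted p = 0.0611 and 0.106, edgeR). The lower calls in shPkm1 were 2 without its replicate 1 and 1 without its replicate 2, and those between shPkm2 and shPkm1 were 1 without replicate 1 of shPkm1 or replicate 2 of shPkm2. Whether these regulators bear on the Mef2 transcripts was not tested.

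**Figure D5:**
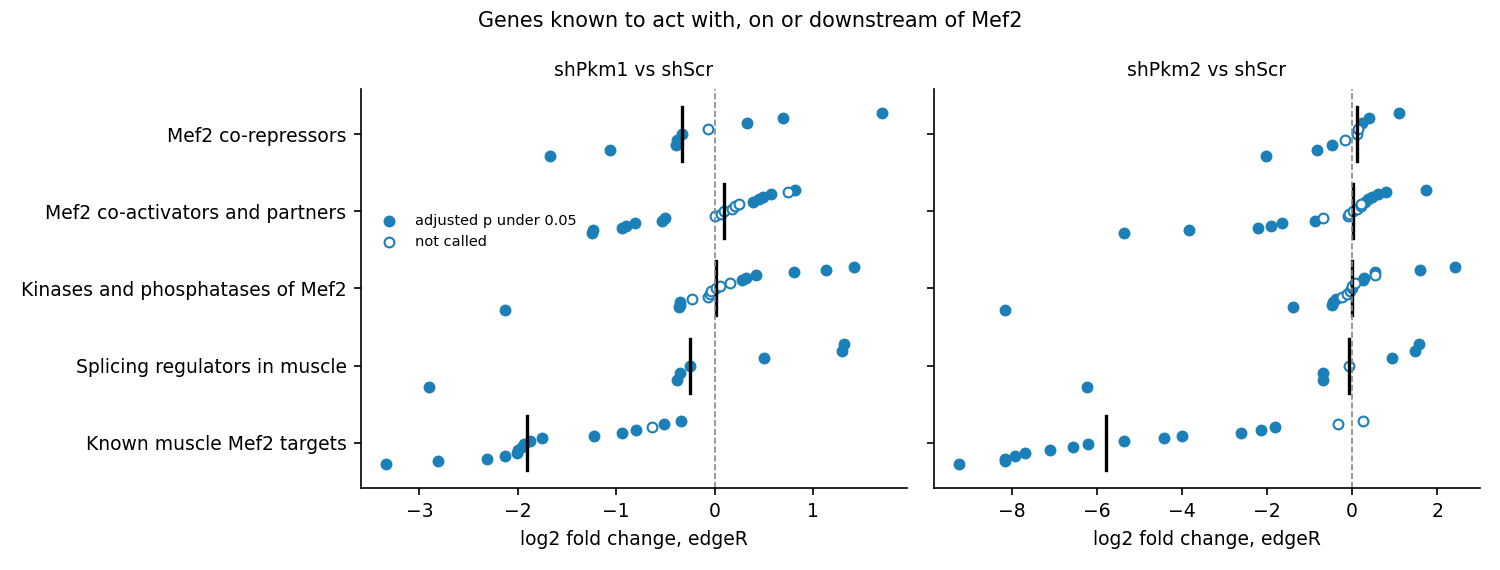
Log2 fold change (x axis, edgeR) against shScr of the tested genes of 5 lists, in shPkm1 (left) and shPkm2 (right); filled points passed an adjusted p of 0.05, the black bar is the median of the list and the dashed line that of all genes. The known muscle targets lie to the left, with medians of -1.91 and -5.78, while the other lists spread to both sides of 0.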

How the data were processed

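Each row of the table is a RefSeq transcript, with columns for an estimated count, an FPKM and a TPM in every library, per the file headers. A further 9 columns of the authors' group means were not used. The deposited estimated counts were 48.0% to 50.7% whole, and the authors' division of reads among similar transcripts is not part of any error here. The submitters' processing notes name HISAT, StringTie, Bowtie, RSEM and DESeq2 and the build mm10, with no versions. The deposited FPKM and TPM values were used as given. Symbols matched 17445 of 17558 gene numbers.

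Estimated counts were summed per gene, or kept per transcript, and rounded. The tests used edgeR 4.0.16 (R 4.3.3) with filterByExpr (minimum count 10, total 15), TMM scaling, 1 coefficient per group over all 6 libraries, two-sided quasi-likelihood F-tests and Benjamini-Hochberg adjustment over 12643 genes, 33433 transcripts, or 28695 transcripts for use (diffSpliceDGE), with a threshold of 0.05. The 3 comparisons share libraries. Standard errors are the log2 fold change over the root of F. Floors of 3 counts and intervals of ratios cover counting error only. Alternatives used limma 3.58.1 and DESeq2 1.42.0. Those for the gene lists and their genes (each library left out, library totals as scaling), and the leaving out of XM_006501090.3, were chosen after seeing the data. Scripts were tested on simulated counts.

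The members and the gene lists were chosen with earlier results of these data known. Named genes are the members, their transcripts, the 3 genes nearest in profile to each tested member, and the 2 largest called rises and falls of each list and comparison. Genes of a list that a result turns on are named as well. Meg3 and the name Mitr were not matched, and Myf6 and Camk4 did not pass the filter. Exon structures and sequences come from GENCODE vM21, and the sequence of a further Mef2a exon is not reported here. Marker lists of osteoblasts, macrophages, endothelial cells and neural or cardiac cells were also read: 3 of 4, 2 of 2, 3 of 4 and 2 of 3 members in the table passed 3 counts in a library, and the first 3 lists summed to at most 3.90 CPM and the last to at most 40.8. Control replicates spread more than the others (SD of the log2 difference between replicates 0.313, against 0.198 in shPkm1 and 0.199 in shPkm2).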

Additional observations from a re-analysis of the deposited data

How the results depend on the processing

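A set of 15 alternatives was run for the 9 gene-level fold changes of Mef2a, Mef2c and Mef2d. All kept their direction and their side of the threshold, except Mef2a in shPkm1 against shScr, whose log2 fold change was 0.04 with library totals only and 0.04 and 0.04 with limma on log2(FPKM + 1) and log2(FPKM + 0.1), and Mef2c in shPkm2 against shPkm1, -0.56 with limma on log2(FPKM + 1). The cause was not tested. For transcripts called in level, shPkm1 against shScr gave 3622, and 8581 with DESeq2, 1922 with only the groups compared and 138 to 2484 without 1 library. The comparison of shPkm2 with shScr gave 5762, 10370 with DESeq2 and 2123 to 4289 without 1 library. The comparison of shPkm2 with shPkm1 gave 2644, 6970 with DESeq2, 4293 and 4117 with limma on log2(FPKM + 1) and log2(FPKM + 0.1), and 404 to 2200 without 1 library. For transcripts called in use, these comparisons gave 117, 317 and 151, and 346, 801 and 305 with voom and diffSplice. Without 1 library they gave 47 to 130, 172 to 276 and 82 to 141. Sharing a replicate number did not pair libraries (correlations of the replicate differences -0.0229, 0.0415 and 0.106), and with the replicate number as a block the counts were 1592, 3711 and 1304 for level and 64, 192 and 77 for use. The use of the Mef2a transcript XM_006540684.3 in shPkm2 against shPkm1 was -9.61, and -10.68 to 1.09 without 1 library: it turned without replicate 2 of shPkm1, where the transcript is then at 0 in both groups. Bounds on exon shares computed from estimated counts or FPKM moved by less than the spread between replicates; without 1 library, a group's bound is that of its other library. Depth limits Mef2b and the transcripts of Mef2c.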
